A study of Mus musculus with 13 samples.

Results

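The first 6 h after C2C12 myoblasts were moved to differentiation medium were examined through the H3K27ac peak lists of the libraries at 0 h and at 6 h. C2C12 is a mouse myoblast line that stops dividing and fuses into myotubes when serum is withdrawn. The unedited cells were grown in DMEM with 10% fetal bovine serum and differentiated in DMEM with 2% horse serum; the 0 h cells were taken at the change and the 6 h cells 6 h later. These are 2 of the 13 samples of the series, chosen by their labelled time, and 12 samples had a peak list analysed here. The unedited libraries at -24, 12, 24 and 72 h, and 6 libraries at 48 h (wild type, a Myod1 knockout and the hotspot deletion lines H1, H3, H23 and H34), served to place the change in time. Each condition had 1 library, so no test between times was possible, and the intervals below are 95% Wilson intervals that cover counting error over peaks only. Neighbouring peaks are not independent. The 0 h list held 86465 peaks over 34.9 Mb and the 6 h list 82369 peaks over 35.0 Mb. The other time course lists held 69251 to 101331 peaks, and the 12 h list was the longest. Read depth was unknown. The labelled cell type was not checked against marker genes, because positions are in mm9 and no mm9 annotation was used here; for the same reason regions are named by position and not by gene.

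Acetylation of histone H3 at lysine 27 (H3K27ac) is placed by the acetyltransferases p300 and CBP and removed by histone deacetylases. It marks active promoters and enhancers, and dense groups of acetylated sites are the usual basis for calling super-enhancers. In myoblasts, serum keeps growth-factor signalling and Id proteins high, which hold the muscle regulator MyoD in check. After serum withdrawal MyoD and its partners act on muscle enhancers, while the FoxO factors, which growth-factor signalling keeps out of the nucleus, can enter it.

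The first question was how many acetylated regions appeared and disappeared within 6 h. A 6 h peak was called gained when no 0 h peak overlapped it by 1 bp, and a 0 h peak lost when no 6 h peak did. Of the 0 h peaks, 22998 (26.6%, 26.3 to 26.9) were lost, and of the 6 h peaks 19952 (24.2%, 23.9 to 24.5) were gained. Merged together, both lists made 98788 regions, of which 55838 had a peak at both times. The lists shared 0.593 of their combined covered bases (Jaccard index). Gain and loss were thus of similar size, and most of the acetylated territory was common to both times.

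The intervals on either side were less even. From -24 to 0 h, 18.1% of the earlier peaks were lost and 36.0% of the later ones were gained. From 6 to 12 h the shares were 18% and 35.4%. In both of these the later list was the longer one, while the 6 h list was shorter than the 0 h list. With the 69251 strongest peaks of each list, 23.3% of 0 h peaks were lost and 24.5% of 6 h peaks gained, against 21.1% and 29.4% from -24 to 0 h and 21.4% and 24.7% from 6 to 12 h. At this common length the Jaccard index was 0.612 for 0 against 6 h, 0.570 for -24 against 0 h and 0.615 for 6 against 12 h. By this index the first 6 h in differentiation medium lay between the intervals beside it; at this length its share of lost peaks was the highest of the 3 and its share of gained peaks the lowest. With the 82369 strongest peaks of each list the order of loss and gain turned round, to 24.6% lost and 25.5% gained. Among the 40000 strongest it was 18.6% lost and 20.2% gained, and among the 10000 strongest 22.2% and 23.2%; here a peak also counts as changed when it only left the top of its list. Among the 40000 and the 10000 strongest, the Jaccard index of 0 against 6 h again lay between the others, at 0.639 and 0.566. With the full lists it was the highest of the 3, at 0.593 against 0.550 and 0.582. The order of loss and gain held only in part. Loss from 0 to 6 h was still the highest among the 40000 strongest, against 17.6% from -24 to 0 h and 17.1% from 6 to 12 h. Gain was lower from 6 to 12 h, at 19.2% among the 40000 and 20.4% among the 10000 strongest, and among the 10000 strongest loss was higher from -24 to 0 h, at 23%.

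Change was concentrated in weak peaks. The score is the authors' value for each peak and was used only for its rank within a list. In the weakest decile of the 6 h list, with scores of 4.0 to 6.71, 58.7% of peaks were gained, against 15.7% in decile 6 and 0.13% in decile 9. The strongest decile, with scores from 42.24 up, held 8238 peaks, of which 1 was gained. Loss followed the same course, from 62.3% in the weakest decile to 19% in decile 6 and 0 of 8507 peaks in the strongest, which allows a share of up to 0.0353% by the rule of 3 counts. The median gained peak was 161 bp wide and at score percentile 22.2, and the median shared 6 h peak was 354 bp wide and at percentile 61.8. Lost peaks were alike, at 154 bp against 346 bp and percentile 23 against 61.5. Because of their narrow width, gained peaks made up 10.8% of the bases covered at 6 h and lost peaks 11.9% of those at 0 h. All 0 h peaks of the strongest decile thus still overlapped a peak at 6 h.

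**Figure D1:**
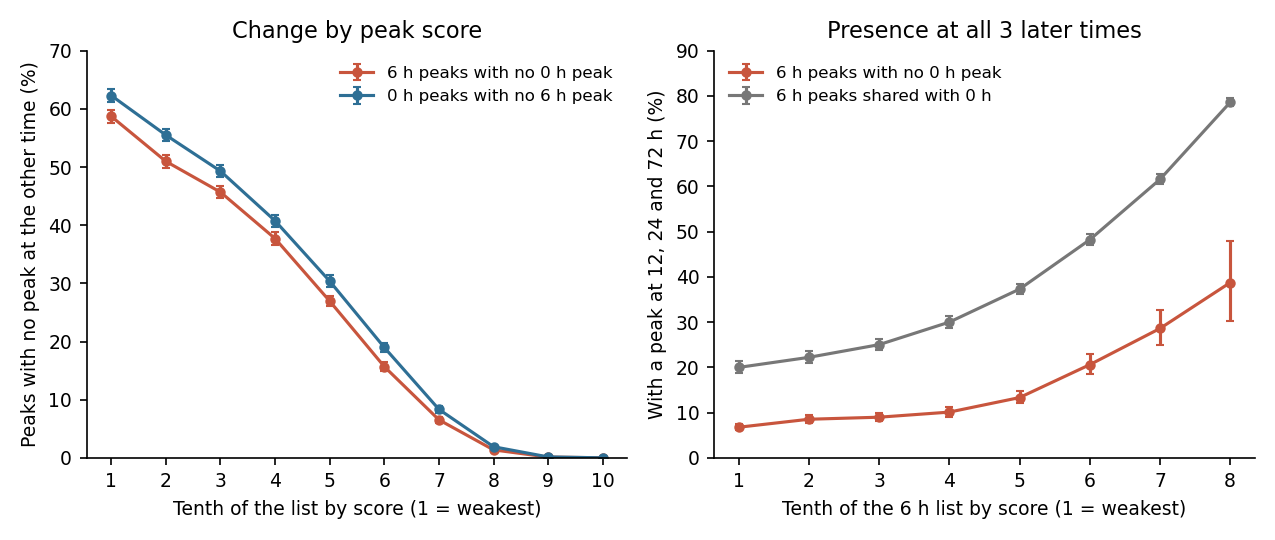
Left, share of peaks (%, with 95% Wilson intervals) that had no peak at the other time, by score decile of their own list; right, share of 6 h peaks (%) with a peak at 12, 24 and 72 h, for gained peaks and peaks shared with 0 h in deciles 1 to 8. The curves on the left fall from 58.7% (gained) and 62.3% (lost) in the weakest decile to near 0 in the strongest, and on the right gained peaks lie below shared peaks of the same decile throughout.

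Most changed peaks lay within 1 kb of a peak of the other list. The lists were dense: merging peaks within 1 kb left 35396 regions of the 86465 peaks at 0 h and 34334 of the 82369 at 6 h. Closeness to another peak is therefore not shown to be particular to changed peaks. Distances were read against the joining distance usual in super-enhancer calling, which is called the stitching distance here and also served to build domains. Of the gained peaks, 67.2% (66.6 to 67.9) were within 1 kb of a 0 h peak, 23.1% between 1 kb and the stitching distance, and 9.70% (1936 peaks) further away. Of the lost peaks, 65.9% were within 1 kb of a 6 h peak and 11.4% (2612 peaks) beyond the stitching distance. Gained peaks within 1 kb had a peak at 12, 24 and 72 h in 11.2% of cases (10.7 to 11.8), against 8.47% (7.31 to 9.80) of those beyond the stitching distance. Lost peaks differed more by distance: 39.6% (38.8 to 40.4) of those within 1 kb had no peak at 12, 24 and 72 h, against 58.0% (56.1 to 59.9) of the distant ones. Between 1 kb and the stitching distance the share was 58.4% (57.0 to 59.7). Lost peaks more than 1 kb from a 6 h peak were therefore more often absent later, with no further rise beyond the stitching distance. Such peaks can still lie near other 0 h peaks.

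Changed peaks sat next to each other when peaks within 1 kb were counted apart, and not beyond that. Among gained peaks with an adjacent 6 h peak within the stitching distance, 47.1% (46.4 to 47.8) had a gained neighbour, against 29.1% (28.8 to 29.5) of shared 6 h peaks. For lost peaks the share was 49.6% (48.9 to 50.2), against 31.5% (31.1 to 31.8) of shared 0 h peaks. With peaks of a list within 1 kb merged first, the shares were 28.8% (27.5 to 30.1) for gained against 27.7% (27.1 to 28.4) for shared regions at 6 h. For lost regions they were 30.0% (28.8 to 31.2) against 30.4% (29.7 to 31.0). The intervals overlap, so the excess of changed neighbours was seen among closely spaced peaks of a list and not between merged regions.

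The next question was whether the change lasted. Gained peaks overlapped a peak in 51.5% of cases at 12 h, 25.5% at 24 h and 22.8% at 72 h, while 6 h peaks shared with 0 h did so in 91.8%, 74.2% and 66.4%. Before the change of medium, at -24 h, 19.5% (18.9 to 20.0) of gained peaks had a peak, so these were not new to the time course at 6 h. Of these 3887 peaks, 495 also had a peak at 12, 24 and 72 h and were absent at 0 h only. A peak at 12, 24 and 72 h was found for 10.5% (10.1 to 10.9) of gained peaks; over all 6 h peaks the share was 47.3%. The difference remained at equal score. In decile 4, 10.1% (9.02 to 11.3) of gained and 30.0% (28.7 to 31.4) of shared peaks were present at all of these times, and in decile 7, 28.6% (24.9 to 32.6) and 61.6% (60.5 to 62.7). Gained peaks were thus less often found again than equally ranked peaks shared with 0 h. Shared peaks are by definition those already found in another list. Width, which also differed between gained and shared peaks, was not matched.

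Lost peaks often came back. At 12 h, 45.8% (45.1 to 46.4) of them overlapped a peak, at 24 h 19.6% and at 72 h 18.2%, against 92.0%, 74.8% and 66.7% of 0 h peaks shared with 6 h. No peak at 12, 24 and 72 h was found for 45.9% (45.3 to 46.6) of lost peaks; over all 0 h peaks the share was 16.3%. Leaving out the 12 h list, the longest, the share of lost peaks with no later peak was 70.6%. These shares of lost peaks, back at 12 h and absent later, were nearly equal with the lists as deposited. Absence was the commoner outcome with an overlap of 50% of the shorter peak, at 49.6% against 41.9%. It was also the commoner with peaks within 1 kb merged, at 52.1% against 40.0%. At a score of at least 5 the shares stayed nearly equal, at 45.9% absent later and 46.0% back at 12 h.

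**Figure D2:**
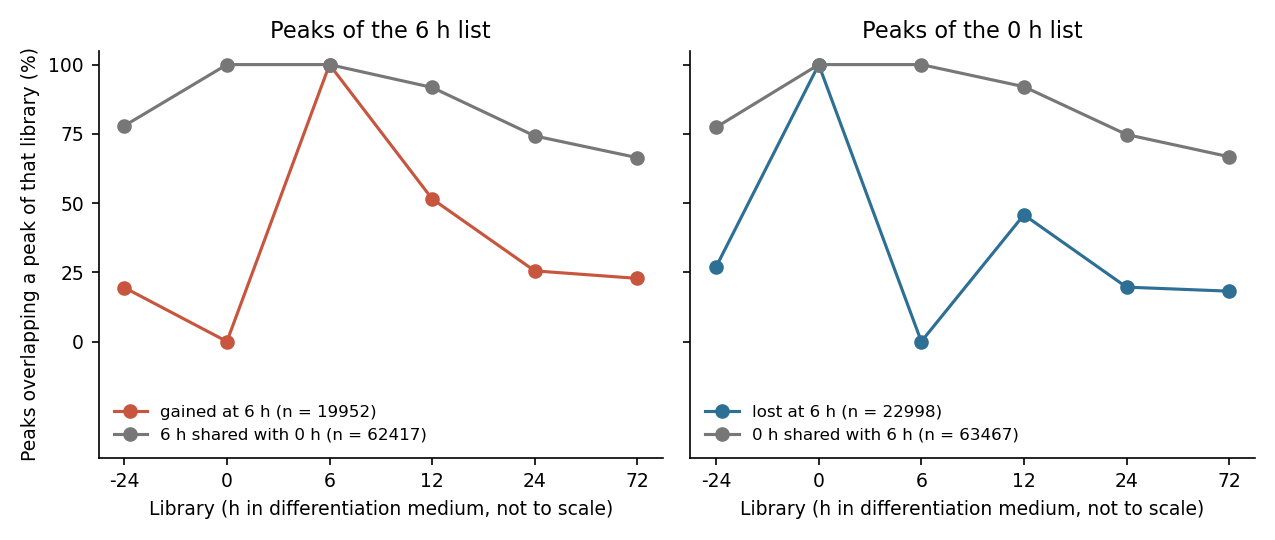
Share of 6 h peaks (left) and 0 h peaks (right) that overlapped a peak in each time course library (%), with 1 library per time; coloured lines show gained or lost peaks and grey lines peaks shared by 0 and 6 h. Gained peaks go from 51.5% at 12 h to 22.8% at 72 h, and lost peaks return to 45.8% at 12 h and stand at 18.2% at 72 h.

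Followed one by one, few of the gained peaks were found at every later time. A peak at 6 h alone of the 6 time course libraries was seen for 6830 of them (34.2%), and at 6 and 12 h alone for 3596 (18%). Regions with a peak in 1 list alone were seen in every time course library, from 5236 at 24 h to 17071 at 12 h. They were therefore not particular to 6 h. Kept gains, with none at -24 and 0 h and a peak at 6, 12, 24 and 72 h, numbered 1600 (8.02%, 7.65 to 8.40). Among lost peaks, 8468 (36.8%) were seen at 0 h alone. Lasting losses, present at -24 and 0 h and absent from 6 h on, numbered 2095 (9.11%, 8.74 to 9.49). A further 577 (2.51%) were present in all of the 5 other time course lists and missing at 6 h only.

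Counted over 131291 merged regions of the 6 lists, the lasting steps at 6 h can be set beside other patterns with the same number of peaks. The lasting gain (6, 12, 24 and 72 h) had 1200 regions and stood 3rd of the 15 patterns with 4 peaks. Above it were regions with a peak from -24 to 12 h (4014) and from 0 to 24 h (1556). The lasting loss (-24 and 0 h) had 1732 regions and stood 5th of 15 patterns with 2 peaks. More regions had a peak at 0 and 12 h alone (2858), 6 and 12 h alone (2697), 12 and 72 h alone (2128) or 12 and 24 h alone (1855), patterns that all include the longest list. A later start of a lasting peak was also common, with 1329 regions present at 12, 24 and 72 h alone. Regions present from 0 h on and absent at -24 h numbered 3398, although with 5 peaks they are not counted among the same patterns. The lasting steps at 6 h were thus among the commoner patterns and did not stand above all patterns that come and go.

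**Figure D3:**
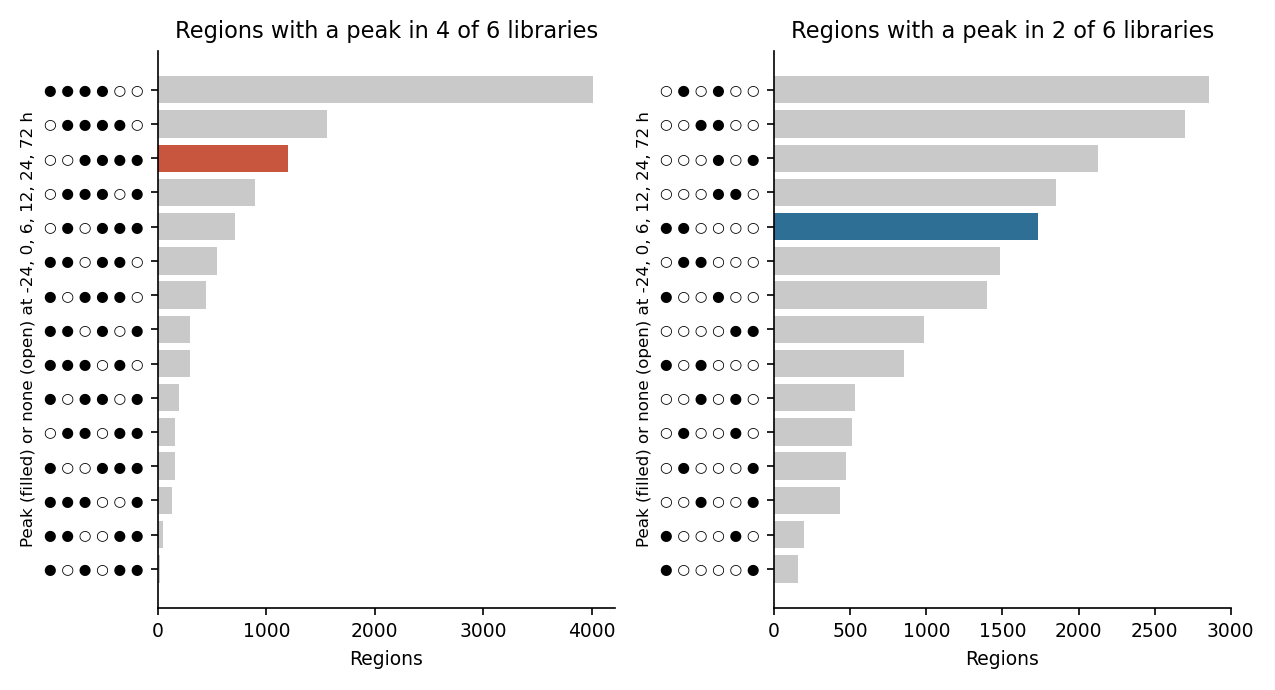
Number of merged regions with each pattern of peaks over the libraries at -24, 0, 6, 12, 24 and 72 h, for regions with a peak in 4 (left) or 2 (right) of the 6; filled circles mark a peak. The lasting gain at 6 h (1200 regions, red) and the lasting loss (1732 regions, blue) are among the commoner patterns and not the most frequent.

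The kept gains were modest peaks, with a median width of 203 bp, a median score percentile of 28.5 and none in the strongest decile. The widest, chr5:36709181-36710352 (mm9), spanned 1172 bp at score percentile 75.9 and lay 370 bp from a 0 h peak. The next, chr12:3855619-3856636, spanned 1018 bp, and its nearest 0 h peak was 225551 bp away, which made it an isolated new site. The others were chr5:35967542-35968373 (832 bp), chr13:46715529-46716329 (801 bp) and chr13:99856372-99857170 (799 bp), which lay 30 to 237 bp from a 0 h peak. All 5 had a wild-type peak at 48 h. Of these, chr13:46715529-46716329 alone had no peak in the Myod1 knockout, and it had none in the H23 and H34 lines either. The highest-scoring kept gain was chr2:173256656-173257310, with a score of 31.46 (percentile 84.0). Next came chr11:97525394-97525788 (25.37), chr1:121438364-121438754 (25.11), chr2:165856808-165857176 (25.06) and chr19:12547083-12547865 (24.11). The Myod1 knockout and the 4 hotspot lines each had a peak at all 5, although chr11:97525394-97525788 had none in the wild-type list at 48 h.

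Gains seen at 6 h alone, or at 6 and 12 h alone, had lower scores at their top than the kept gains. The strongest peak seen at 6 h alone was chr4:82129968-82130150, with a score of 22.82 (percentile 75.6) and a width of 183 bp. It was followed by chr4:141160265-141160516 and chr13:49737668-49738043 (both 21.00), chr8:126196389-126196564 (19.69) and chr11:113328955-113329153 (19.57). Each of these 5 overlapped a peak in 2 to 4 of the hotspot lines at 48 h, whose lists were the longest of the series. None had a peak in the Myod1 knockout. Over all gained peaks, 13.6% had a peak in the knockout and 46.2% to 58.3% had one in each hotspot line. Most gained peaks thus lacked a knockout peak. Of the 5, chr4:82129968-82130150 alone also had a wild-type peak at 48 h. The strongest peaks seen at 6 and 12 h alone were chr17:35302539-35302978 (23.12), chr14:66212060-66212255 (22.44) and chr13:48588855-48589264 (21.06). They were followed by chr9:14372829-14373035 and chrX:92638097-92638385 (both 21.00). The first 4 of these also had a wild-type peak at 48 h, in a list of another format, so their absence at 24 and 72 h did not extend to every later list. All 10 lay within 1 kb of a 0 h peak.

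One lasting loss stood out in both width and score. At chr2:180170990-180171874 the 0 h peak was 885 bp wide with a score of 30.29 (percentile 86.3), and the nearest 6 h peak was 6376 bp away. It had a peak at -24 h and none in any of the other 10 lists, the 6 libraries at 48 h included. The next widest losses were chr1:95079219-95079880 (662 bp), chr1:151978660-151979313 (654 bp), chr15:87482813-87483430 (618 bp) and chr2:79823067-79823683 (617 bp). By score, the next were chr6:131296944-131297160 (28.18), chr1:74131678-74132109 (25.10), chr16:55635347-55635576 (20.62) and chr8:14607137-14607343 (20.14). All of these had a peak in 1 to 4 of the hotspot lines. Each hotspot line had one at 31.3% to 49.3% of all lasting losses. At 48 h chr2:79823067-79823683, chr16:55635347-55635576 and chr8:14607137-14607343 had a wild-type peak, and chr1:74131678-74132109 had one in the Myod1 knockout. A 6 h peak lay 1 bp from chr2:79823067-79823683. Over all 2095 lasting losses, 30.7% had a wild-type peak at 48 h and 7.26% one in the Myod1 knockout. Over all lost peaks, these included, the shares were 30.0% and 11.8%, and over 0 h peaks shared with 6 h they were 73.1% and 51.7%. The wild-type share of the lasting losses was thus near that of all lost peaks and below that of shared peaks. Among the kept gains, which were chosen for their later peaks, the shares were 58.3% and 26%.

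Gained and lost peaks were then joined into domains, with peaks of 1 list within the stitching distance put in 1 domain. Of 18653 domains at 6 h, 2188 consisted of gained peaks only, of which 1775 were a single peak. Runs of at least 3 peaks, all gained, numbered 111 and held 386 peaks. At 0 h, 2655 of 19092 domains consisted of lost peaks only, and 155 of these were runs of at least 3, with 519 peaks. Runs made up wholly of changed peaks were thus few, and most all-gained or all-lost domains were single peaks. Such a domain can still lie near a peak of the other list. Of the gained runs, 38 held a peak with a match at 12 h, at 24 h and at 72 h each, and 13 had no match at any of these times. Of the lost runs, 24 had a match at each of these times and 37 had none. A run counted as matched at a time when at least 1 of its peaks overlapped, and that peak could differ between times. The same counts were not made over other domains of at least 3 peaks. Whether runs lasted more or less often than those is therefore not shown.

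The longest gained run was at chr8:117070735-117080278, where 9 peaks within 9.54 kb had no counterpart at -24 and 0 h. Of these, 8 overlapped a peak at 12 h, 6 at 24 h and none at 72 h, and none had a peak in wild-type cells or the Myod1 knockout at 48 h. This domain was present from 6 to 24 h only among the time course lists. The next run, of 8 peaks at chr1:121149771-121156972, was lasting: 6 of them had a peak at 12 h, 7 at 24 h and 7 at 72 h, with none at -24 h. Of the 8, 2 had a wild-type peak at 48 h, and there was none in the Myod1 knockout or the H1, H3 and H23 lines. The run at chr15:58365426-58386683 (7 peaks) had 4 counterparts at -24 h and 2 at 12 h and none at 24 and 72 h. The runs at chr15:58000134-58009798 and chr1:80005672-80022299 (6 peaks each) also had 2 and 3 counterparts at -24 h. Of the 5 longest gained runs, the 2 longest were therefore the ones absent at both earlier times. The longest lost runs were chr7:89323781-89338042 (7 peaks) and chr17:26551184-26562286 (6 peaks), followed by runs of 5 peaks at chr8:55532616-55536086, chr17:50711689-50724249 and chr9:117097306-117104144. In each of these 1 to 3 of the peaks overlapped a 12 h peak, so none was empty at 12 h.

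Domains above the slope-1 point of the ranking are called large here. They are ranked by summed width times score, as in super-enhancer calling, with promoters left in. There were 783 at 0 h and 856 at 6 h. At 6 h, 152 (17.8%, 15.3 to 20.5) overlapped no large domain at 0 h, and at 0 h 92 (11.7%, 9.68 to 14.2) overlapped none at 6 h. The shares were 21.3% and 20.7% from -24 to 0 h and 13.2% both ways from 6 to 12 h. Ranking by width alone turned the order round, with 9.88% new of 1042 at 6 h and 20.0% lost of 1167 at 0 h. Joining within 5 kb made the shares 19.2% of 782 and 19.3% of 776. With equal numbers of strongest peaks the excess of new large domains held, at 19.9% of 856 and 10.4% of 756. The excess thus depended on the setting, and the number of domains called large at each time changed with it. The part of these numbers was not tested.

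New large domains were mostly domains that had been just below the line. The best-ranked 0 h domain overlapping each had a median rank of 1009 (range 787 to 2701), where the first 783 were large. Gained peaks made up 31.4% (29.6 to 33.3) of the 2363 peaks in the 152 new large domains, against 21.4% (20.8 to 22.1) in the 704 that were large at both times. The peaks within them covered a median of 1.18 times as many bases at 6 h as at 0 h, against 1.03 times in the domains large at both times. These domains were chosen for being higher at 6 h, so these values describe them and test nothing. Times outside the comparison were not used in that choice, but their shares are not free of it, because their lists resemble the 0 and 6 h lists to unequal degrees. In regions with a peak in all 6 time course libraries, score ranks at 0 h had a Spearman rho of 0.813 with -24 h and 0.724 with 24 h. Of the new ones, 57.9% (49.9 to 65.5) were large at 12 h, 50.7% (42.8 to 58.5) at 24 h, and 29.6% (22.9 to 37.3) both at 72 h and at -24 h. For the 92 lost ones the shares were 40.2% (30.8 to 50.4), 25% (17.3 to 34.7) and 23.9% (16.4 to 33.6), and 48.9% (38.9 to 59.0) at -24 h. New large domains were more often large at 24 h than at -24 h, with intervals that do not overlap, and lost ones less often. The 704 domains at 6 h that were large at both times were also more often large at 24 h (87.8%) than at -24 h (82.1%), by a smaller margin and with intervals that do not overlap. At 72 h 71.3% of them were large, below their -24 h share, whereas the new ones were large as often at 72 h as at -24 h. Whether these courses differ was not tested.

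The 5 highest-ranked new large domains, picked after their values were seen, show this path in covered bases. At chr13:70851318-70894547 peaks covered 5.93 kb at -24 h and 10.6 kb at 0 h, then 16.6, 17.8, 12.9 and 6.61 kb from 6 to 72 h. At chr10:59809704-59863693 the lengths over the 6 libraries were 7.04, 10.6, 16.5, 19.4, 14.9 and 15.9 kb. The first was back near its starting value at 72 h, whereas the second stayed high and was large at 12, 24 and 72 h. At chr12:80956925-81050694 the covered length went from 5.51 and 8.99 kb at -24 and 0 h to 12.6 kb at 6 h, 15.4 kb at 12 h and 13.4 kb at 72 h. The other 2, chr8:110013635-110071506 and chr15:97641688-97680171, had already been large at -24 h. In all 5 the covered length was lower at -24 h than at 0 h, and higher at 12 h than at 6 h. The same held for the 5 highest-ranked lost large domains, and the whole lists covered 26.8 Mb at -24 h and 41.3 Mb at 12 h, so this is not particular to the new ones.

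Of the 131291 merged regions, 28493 had a peak in all 6 time course libraries, and for these the change was read from their rank. Each was given its score percentile among these same regions in each library. Across regions the ranks at 0 and 6 h had a Spearman rho of 0.821, close to those of -24 and 0 h (0.813) and of 6 and 12 h (0.845), and 0 and 72 h had 0.643. These are descriptions over regions, which share libraries and are not replicates. From 0 to 6 h, 2113 regions (7.42%) moved up by more than 25 percentile points and 2134 (7.49%) moved down by as much. Regions that moved up had a median percentile of 36.0 at -24 h and 23.7 at 0 h, and of 60.2, 48.1, 45.4 and 45.5 in the libraries from 6 to 72 h. Those that moved down had medians, in the same order, of 49.2, 61.6, 24.3, 39.1, 37.8 and 37.9. The values at 0 and 6 h chose both groups. At the other times the ones that moved up lay below the others before the change of medium. They lay above them afterwards, with a smaller gap than at 6 h. This order is not free of the choice. Ranks at -24 h had a higher rho with 0 h (0.813) than with 6 h (0.769), and ranks at 12 h a higher one with 6 h (0.845) than with 0 h (0.811). Over all 28493 regions the medians were 49.2 at -24 h and 51.0, 52.4 and 52.3 in the libraries at 12, 24 and 72 h. The ones that moved up thus stayed below the median of all regions at these later times, and the ones that moved down were level with it at -24 h. The quartile ranges of both groups overlapped at every one of those other times.

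**Figure D4:**
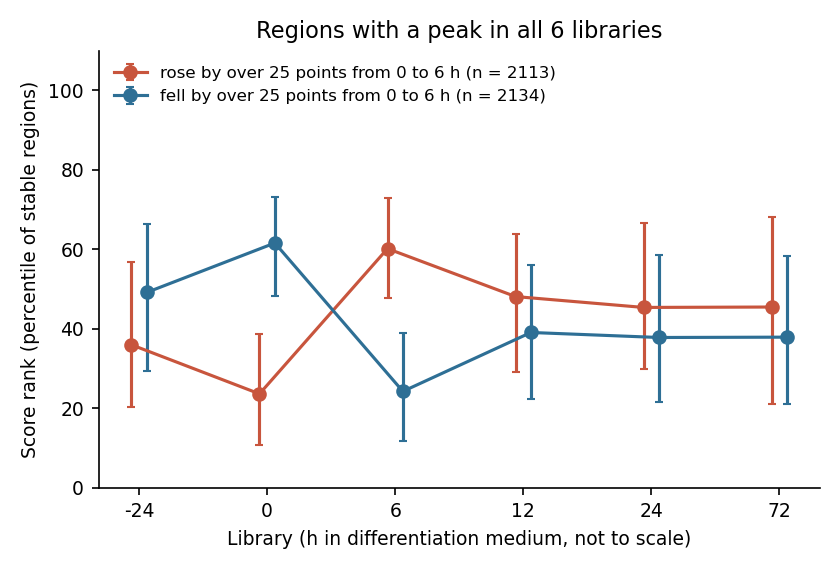
Median score percentile (points, with bars from the lower to the upper quartile over regions) of regions with a peak in all 6 time course libraries, for the 2113 that moved up and the 2134 that moved down by more than 25 points from 0 to 6 h. The 0 and 6 h values chose the groups; from 12 to 72 h the medians lie at 45.4 to 48.1 and 37.8 to 39.1, between the 0 and 6 h values of each group.

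Single peaks with a one-to-one partner, 44998 pairs, gave the largest shifts. The largest move up was at chr10:80214465-80214876, from percentile 9.11 at 0 h to 86.4 at 6 h, with a width of 236 bp at 0 h and 412 bp at 6 h. It was followed by chr3:50896264-50896577 (6.60 to 83.7), chr15:75672537-75672881 (6.60 to 82.4), chr1:94579499-94579858 (9.65 to 84.8) and chr6:140436341-140436678 (1.25 to 75.1). All 5 had a peak at 12 and 24 h and in wild-type cells at 48 h. The first 2 had none at -24 and 72 h, and the last 2 had none in the Myod1 knockout. The largest move down was at chr17:24342092-24342411, from percentile 80.9 to 4.80. The others were chr7:30135243-30135412 (82.4 to 7.20), chr9:108122440-108122690 (78.4 to 4.80), chr17:27021648-27021935 (78.4 to 4.80) and chr2:20891425-20891813 (82.4 to 9.57). All of these had a peak at -24 and 12 h.

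The Myod1 knockout library at 48 h was not used to choose the gained peaks and shows which of the lasting ones had a peak without MyoD. Among gained peaks with a peak at 12, 24 and 72 h and in wild-type cells at 48 h, 794 of 1269 (62.6%, 59.9 to 65.2) lacked a knockout peak. Of the peaks shared by 0 and 6 h with the same later peaks, 7745 of 31407 (24.7%, 24.2 to 25.1) did. Over both together the share was 26.1%. The gap was narrower between peaks of like score in deciles 1 to 7: in decile 4 the shares were 71.1% (63.4 to 77.8) and 52.6% (49.3 to 55.9), and in decile 7 53.6% (44.4 to 62.7) and 36.9% (35.4 to 38.5). In decile 1 they were 66.2% (59.3 to 72.4) and 60.4% (55.6 to 65.0), with intervals that overlap. The intervals also overlapped in deciles 3, 5, 9 and 10, and were apart in deciles 2, 4, 6, 7 and 8. In decile 8 the shares were 64.7% (47.9 to 78.5) of 34 gained and 27% (25.8 to 28.2) of 5494 shared peaks. In the hotspot lines the same gained peaks were missing less often, for H1, H3, H23 and H34 in 4.10%, 18.4%, 15.8% and 13.1% of cases, against 2.06%, 7.32%, 4.49% and 3.29% of shared peaks. Lasting gains at 6 h were therefore missing more often than shared peaks in all 5 edited lines. They were missing most often in the knockout, whose list was the shortest. The lowest −log10 p-value of a peak was 4.02 in the knockout list and 3.01 to 3.03 in the hotspot lists. The shares of the knockout and the hotspot lines therefore stand at unlike cutoffs. For the hotspot lines, peaks of like score were not compared. The strongest decile held 1 of the 1269 gained and 8025 of the 31407 shared peaks. Each edited line had 1 library, and the edit and other differences of a line cannot be told apart.

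Gain and loss differed between chromosomes. With the full lists, a larger share of 0 h peaks was lost than of 6 h peaks gained on 17 of the 20 chromosomes. Chromosomes 10, 15 and X had the reverse. The 0 h list was the longer one, and with equal numbers of strongest peaks 24.6% were lost and 25.5% gained over all chromosomes. The count of chromosomes was not repeated with equal numbers. On chromosome 10, 27.6% (26.3 to 29.0) of 6 h peaks were gained and 22.5% (21.3 to 23.8) of 0 h peaks lost, and on chromosome 9 the shares were 21.8% (20.6 to 23.1) and 29.4% (28.2 to 30.7). Chromosome 10 held 4.47% of the covered bases at 0 h and 4.71%, 4.84% and 4.75% in the libraries at -24, 6 and 12 h, so it was the 0 h library that was low. Chromosome 9 held 5.63% at 0 h and 5.41%, 5.31% and 5.40% in the others, so there the 0 h library was high. The log2 ratio of the covered shares at 6 and 0 h ran from -0.08 on chromosome 9 to 0.12 on the X chromosome. The part of such chromosome-wide shifts in the single gains and losses was not tested.

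**Figure D5:**
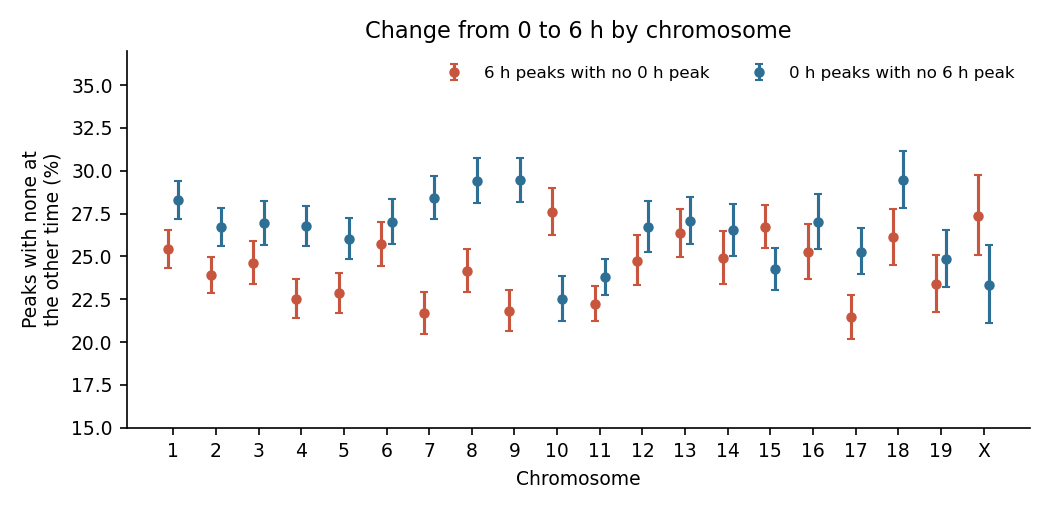
Share of 6 h peaks with no 0 h peak and of 0 h peaks with no 6 h peak on each chromosome (%, with 95% Wilson intervals over peaks). The full lists are used, of which the 0 h list is the longer. Gain exceeds loss on chromosomes 10, 15 and X only, and the widest gap the other way is on chromosome 9, at 21.8% and 29.4%.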

How the data were processed

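H3K27ac ChIP-seq peaks were used as the authors deposited them, 1 list per library. MACS2 2.1.0 and the build mm9 are named in the submitters' processing notes; for the aligner, control library, filters and cutoffs, the sources used here name nothing. The 6 deposited time course lists have 5 columns, the last a score with no stated unit; the 6 deposited lists at 48 h have 10 columns, of which the −log10 p-value was used to choose the strongest peaks. Deposited starts were read as counted from 0 and are printed counted from 1.

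Overlap meant 1 bp, and the stitching distance was 12.5 kb. Equal-length comparisons took the strongest peaks by score. Named regions are the 5 widest, highest-scoring, longest or most shifted of each class on chromosomes other than 18. The classes, lists and named-region rules were chosen with earlier results of these data known. Alternatives are given in the closing section. On 20000 simulated regions, the code found the 1000 gained and 2000 lost ones put in. Python 3.11.15, numpy 2.4.6, pandas 2.3.3, scipy 1.17.1 and matplotlib 3.10.9 were used. Each group had 1 library, which sets the precision, since read depth was unknown.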

Additional observations from a re-analysis of the deposited data

How the results depend on the processing

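There were 58 alternatives over 12 results, and 11 of them (the 69251, 40000 and 10000 strongest peaks, and no 12 h list) were added after seeing the data. For 12 the value stayed within the 95% interval of the reported one and for 46 it moved outside; beyond what each setting changes by construction, the cause was not tested. The reported lost share of 0 h peaks was 26.6%. It was 24.6% with equal numbers of strongest peaks, 23.3%, 18.6% and 22.2% with the 69251, 40000 and 10000 strongest, 26.1% at a score of at least 5, 30.4% at an overlap of 50% of the shorter peak and 22.1% with peaks within 1 kb merged. The gained share of 6 h peaks, 24.2%, was 25.5% with equal numbers, 20.2% and 23.2% with the 40000 and 10000 strongest, 28.2% at 50% overlap and 19.7% with merging. The Jaccard index, 0.593, was 0.597 with equal numbers, 0.612, 0.639 and 0.566 with the 69251, 40000 and 10000 strongest, 0.596 at a score of at least 5 and 0.672 with merging.

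Equal numbers meant the shortest time course list a result uses: 69251 peaks for results up to 72 h, 74764 for those with -24 h and 82369 otherwise. With equal numbers, 50% overlap and merging in turn, gained peaks with a peak at 12, 24 and 72 h (10.5%) were 12.3%, 7.99% and 9.88%, lost peaks with none at those times (45.9%) were 49.0%, 49.6% and 52.1%, lost peaks back at 12 h (45.8%) were 37.5%, 41.9% and 40.0%, and gained peaks with a -24 h peak (19.5%) were 23.7%, 18% and 16.4%. Without the 12 h list the first 2 of these were 11.9% and 70.6%. Gained peaks next to a gained one (47.1%) were 48.9%, 50.8% and 28.8%, and 43.6% with neighbours within 5 kb; lost ones (49.6%) were 46.7%, 52.6% and 30.0%, and 45.6%. Lasting gains without a Myod1 knockout peak (62.6%) were 56.1%, 65.8% and 59.8%. Large domains lost from 0 h (11.7%) were 19.3% with joining within 5 kb and 20.0% when ranked by width, and new large domains at 6 h (17.8%) 9.88% when ranked by width. No paired analysis was possible because each group had 1 library. How read depth bears on weak peaks was not tested, as depth is unknown. Gene lists were not run, since no mm9 annotation was used here.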
